A study of Mus musculus with 12 samples.

Results

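The genes described here are 47 genes of the amino acid and unfolded protein stress responses, followed in mouse leukaemia cells treated with a JAK inhibitor, an LSD1 inhibitor or both. They were listed by name from both pathways, and their symbols were looked up in a table of 24411 genes. A mean of at least 10 normalised read counts (gene read counts divided by a factor for each library) over the 12 libraries was asked for, and 46 of the 47 passed. They are among 11484 genes tested. The exception was Atf3, a stress transcription factor, with a mean of 3.82. Its values were 1.00 to 3.96 with DMSO, 1.98 to 3.08 with ruxolitinib, 4.99 to 6.97 with GSK-LSD1, and 2.98 to 5.92 with both drugs. It was not tested. Of the tested genes, 30 belong to the arm around the factor ATF4 (called the amino acid genes here) and 16 serve the endoplasmic reticulum (the ER genes).

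The cells came from bone marrow of BALB/c mice and carried mutant CSF3R, the receptor of granulocyte colony-stimulating factor, and mutant CEBPA, a myeloid transcription factor, both brought in with retroviruses. All 4 groups share this background, so the DMSO control is itself leukaemic, and no untransduced cells were among the samples. For 24 h the cells received the solvent DMSO, 50 nM ruxolitinib (which inhibits JAK1 and JAK2), 2 nM GSK-LSD1 (which inhibits the histone demethylase LSD1) or both, with 3 libraries each. The labels name neither the exact mutations nor the promoters of the vectors, nor whether replicates were separate cultures. P-values therefore measure the spread between these libraries, which may be technical.

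Cells short of amino acids, or with unfolded protein in the endoplasmic reticulum, phosphorylate the translation factor eIF2. General translation then slows while ATF4 protein is made in larger amounts, and ATF4 switches on genes for amino acid synthesis, amino acid uptake and charging of tRNAs. In parallel, the reticulum's sensors IRE1 (encoded by Ern1) and ATF6 activate chaperone and degradation genes, IRE1 through splicing of the Xbp1 transcript. The amount of ATF4 protein, the splicing of Xbp1 and the cleavage of ATF6 are not visible in gene-level RNA values.

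Library sums, in multiples of the smallest step between values, lay between 8260995 and 8528400, and the 47 genes took 1.59% to 1.75% of a library. Ruxolitinib replicate 2 and combination replicate 3 stood apart on the second principal component, at -19.7 and -17.3, and results that rest on them are given with and without them. The myeloid markers fixed for the labelled cells were all above the minimum (10 of 10). They summed to 23100 to 24080 with DMSO, 27100 to 33420 with ruxolitinib, 22920 to 24040 with GSK-LSD1 and 29630 to 34520 with both. Of the 10, 4 were higher and 0 lower with ruxolitinib, and 5 were higher and 0 lower with both. With GSK-LSD1 3 were higher and 3 lower, so its sum hides changes in opposite directions. Among all tested genes, 1.00% were higher and 0.627% lower with ruxolitinib. The shares were 17.0% and 15.5% with GSK-LSD1, and 20.5% and 21.8% with both drugs. All counts of called marker genes stand against these shares. Of the other marker lists, plasma cell genes summed to 63.6 to 91.0 with DMSO, 80.6 to 95.7 with GSK-LSD1 and 85.5 to 95.7 with both drugs. Of the 7 plasma cell genes found, all but Prdm1 were under a mean of 10, and none was called. Macrophage genes summed to 135.7 to 182.7 with DMSO, 248.8 to 284.7 with GSK-LSD1 and 291.0 to 332.3 with both drugs, and 2 and 3 of the 3 tested were higher (C1qb and Marco at 0). Stroma and endothelium genes went from 3229 to 3351 to 4044 to 4319 and 4329 to 4378 (3 and 2 of 3 tested higher, Cxcl12 and Cdh5 at 0). Mast cell and basophil genes moved from 16650 to 18660 to 19940 to 21480 and 18630 to 21400 (4 of 7 higher in each). Erythroid genes went from 380.1 to 473.7 to 252.8 to 288.7 and 229.9 to 418.7 (2 and 4 of 6 tested lower, the 4 globins at 0). For B, T and NK cell genes the sums were 152.0 to 175.8, 172.2 to 219.8 and 194.9 to 215.2 (0 and 1 of 1 tested higher, Pax5 and Ncr1 at 0). With ruxolitinib alone, 1 mast cell gene was higher and no gene of the lists of other cell types was lower. The mast cell and basophil sums were then 19780 to 21220, also above every DMSO library, and the sums of the other lists of other cell types overlapped DMSO. The part of these shifts in the results was not tested.

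Promoter sequences of the 2 arms were searched apart from any expression value, but the first 3 stretches printed below were picked by calls. The genes were listed as members of known pathways, so a difference in known elements is no independent result. RefSeq windows of GRCm38.p6, from 250 bases before to 50 after a transcript start, were at hand for 41 of the 47 genes (all but Cth, Slc7a5, Slc1a5, Wars, Nars and Atf6). Letters of 5 known elements were searched on both strands. TGATGNAA (TTNCATCA on the other strand) is the core of the element shared by C/EBP and ATF factors. It was in 10 of 26 amino acid genes (38.5%, or 34.5% of their windows), in 1 of 15 ER genes, Herpud1, and in 3.97% of all 32851 windows. The ER stress element, CCAAT then 9 bases of any kind then CCACG, was in none of the 26 amino acid genes, in 6 of 15 ER genes (40%) and in 0.119% of all windows. Its last 5 letters, CCACG, are also the motif searched alone. That was in 32.8% of all windows, 73.1% of the amino acid genes (69% of their windows) and 80% of the ER genes, so it separates the arms little. TGACGTGG was in 0.676% of all windows and in no member, and TGACGTCA in 1.79% of all windows and in 1 member, Ppp1r15a. A match describes the letters and does not show that a factor binds. The stretches below lie wholly before the start and show both elements in capitals (on the strand of the gene, so an element on the other strand appears as its reverse complement). The first 3 are amino acid genes called in at least 1 comparison with DMSO. Aars also met that rule and is not printed. Atf3 (not tested), Pycr1 and Chac1 (not called against DMSO) have such a stretch too and are not printed. Herpud1 is the ER gene with the ATF letters, and the last 6 are the genes with the ER stress element.
Asns, chr6:7693210-7693247, minus strand: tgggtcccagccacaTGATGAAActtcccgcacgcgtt
Slc7a11, chr3:50443638-50443694, minus strand: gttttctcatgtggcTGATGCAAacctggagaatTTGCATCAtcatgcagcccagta
Gars, chr6:55037956-55037993, plus strand: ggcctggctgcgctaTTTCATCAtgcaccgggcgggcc
Herpud1, chr8:94386302-94386339, plus strand: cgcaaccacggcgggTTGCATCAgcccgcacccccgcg
Hspa5, chr2:34772010-34772058, plus strand: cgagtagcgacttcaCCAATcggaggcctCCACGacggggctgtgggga
Hsp90b1, chr10:86705518-86705671, minus strand: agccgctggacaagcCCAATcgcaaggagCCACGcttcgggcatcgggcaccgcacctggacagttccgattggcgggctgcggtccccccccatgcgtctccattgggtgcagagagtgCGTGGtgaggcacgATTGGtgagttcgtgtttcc
Dnajc3, chr14:118937812-118937860, plus strand: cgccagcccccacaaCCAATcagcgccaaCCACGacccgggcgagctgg
Pdia6, chr12:17266476-17266524, plus strand: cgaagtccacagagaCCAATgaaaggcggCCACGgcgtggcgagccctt
Calr, chr8:84847060-84847108, minus strand: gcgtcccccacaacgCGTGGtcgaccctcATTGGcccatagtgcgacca
Canx, chr11:50325785-50325833, minus strand: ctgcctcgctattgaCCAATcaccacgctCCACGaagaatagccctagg

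Against DMSO, the amino acid genes were mostly lower wherever GSK-LSD1 was present, and the called ER genes included both falls, mostly of chaperones, and rises, mostly of sensors. After GSK-LSD1, 4 of the 46 genes rose and 17 fell, against 17.0% and 15.5% of all tested genes (limma, Benjamini-Hochberg adjusted p under 0.05, as in every call here). After both drugs, 5 rose and 22 fell, against 20.5% and 21.8%. After ruxolitinib alone, 1 rose and 0 fell, against 1.00% and 0.627%, and 9 passed an unadjusted p under 0.05. The share of all tested genes passing that unadjusted p was not computed, here or where such counts follow. The weakest of the 9, Pdia4 (unadjusted p = 0.0458, limma), had rank 1915 among 11484 tested genes. Many other genes therefore passed too, and no effect of ruxolitinib on the set is read from the 9. The share of members that fell was 37.0% with GSK-LSD1 and 47.8% with both, over 2 times the background in each. The 3 comparisons share the DMSO libraries. Fewer cells of a type and less RNA per cell cannot be told apart in bulk RNA.

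Split by arm, 13 of 30 amino acid genes fell and 1 rose with GSK-LSD1, with a median log2 fold change of -0.14. With both drugs 17 fell and 3 rose, with a median of -0.18. Of the 16 ER genes, 4 fell and 3 rose with GSK-LSD1 (median -0.02), and 5 fell and 2 rose with both (median -0.06). The ER rises were 18.75%, near the 17.0% of all tested genes, and 12.5%, below the 20.5%. The ER falls were 25% and 31.25%, against 15.5% and 21.8% of all tested genes. The amino acid falls were 43.3% and 56.7%, and the amino acid rises were below the share of all tested genes in each. With ruxolitinib alone the order of the medians was the other way round, 0.0005 for the amino acid genes and -0.09 for the ER genes. The medians over all tested genes were -0.0049, -0.01 and -0.0012 for GSK-LSD1, both drugs and ruxolitinib. The difference between the arms was not tested. Leaving out ruxolitinib replicate 2 and combination replicate 3 gave the combination 6 rises and 22 falls, and ruxolitinib 1 rise and 3 falls (Hspa5, Hsp90b1 and Canx). GSK-LSD1 then had 29 calls, with Slc7a5, Sars, Nars, Iars, Trib3, Hsp90b1, Pdia4 and Xbp1 added, although neither library is in that comparison. Of all tested genes 45.7%, 2.76% and 42.5% were then called for the combination, ruxolitinib and GSK-LSD1. With all libraries these shares were 42.3%, 1.63% and 32.5%.

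**Figure D1:**
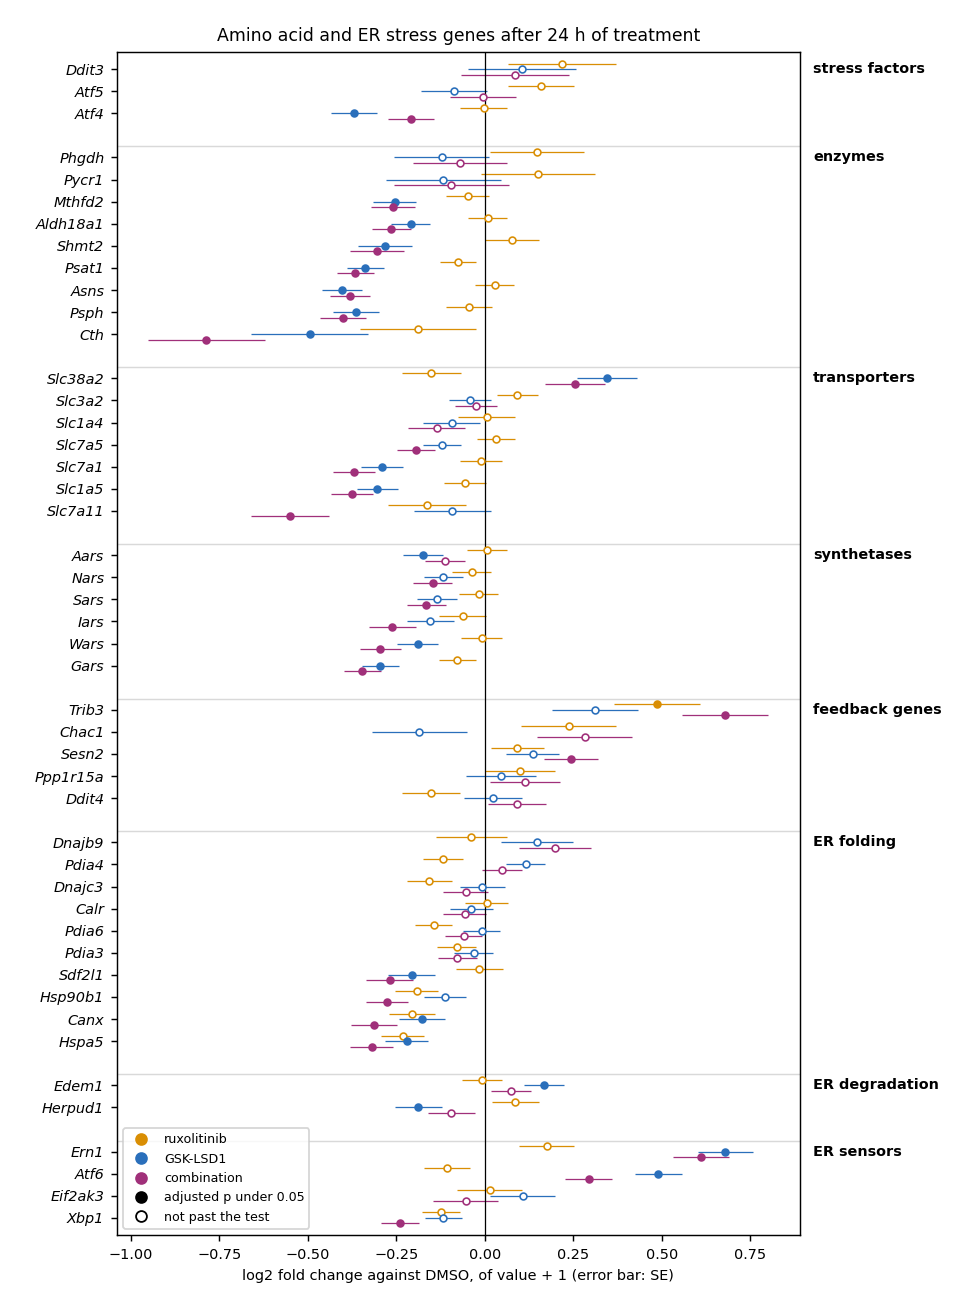
Log2 fold change against DMSO (x axis, with SE) of the 46 tested genes, grouped by role and coloured by treatment, with filled points where the adjusted p was under 0.05. The enzymes and synthetases lie left of 0 wherever GSK-LSD1 was given (blue and purple), whereas Ern1 with GSK-LSD1 and Trib3 with both drugs reach 0.68.

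In single libraries, the median of the amino acid genes relative to the DMSO mean was -0.14, -0.14 and -0.22 with GSK-LSD1, and -0.22, -0.20 and -0.17 with both drugs. With ruxolitinib it was -0.01, 0.0077 and 0.02, close to the DMSO libraries at -0.0056, -0.0051 and 0.0034. The ER median was -0.09, -0.09 and -0.13 with ruxolitinib, but only -0.02, -0.02 and -0.03 with GSK-LSD1. With both drugs it was -0.03, -0.09 and -0.11. On the amino acid median the 6 libraries with GSK-LSD1 did not overlap the 6 without it. On the ER median the ruxolitinib libraries did not overlap those with GSK-LSD1 or DMSO, and the combination libraries overlapped those with ruxolitinib.

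**Figure D2:**
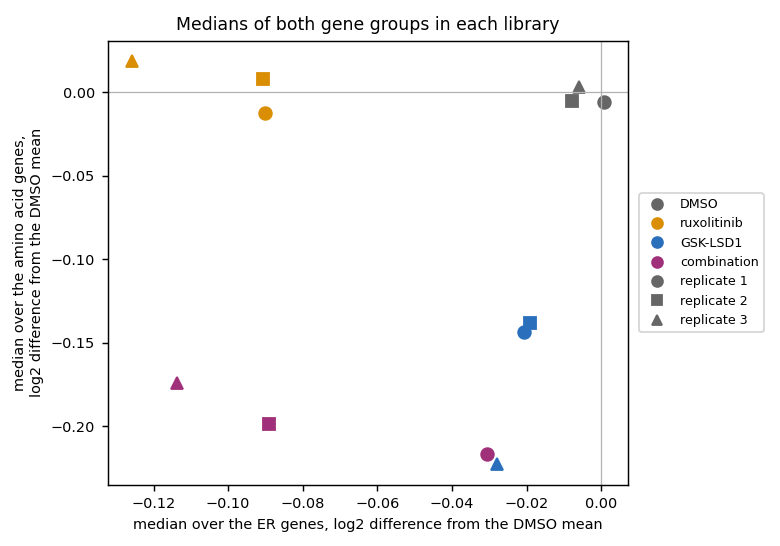
Each point is a library, placed by the median log2 difference from the DMSO mean over the 16 ER genes (x axis) and the 30 amino acid genes (y axis). Libraries with GSK-LSD1 lie between -0.14 and -0.22 on the y axis, and the ruxolitinib libraries stay near 0 there but at -0.09 to -0.13 on the x axis.

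Among the stress transcription factors only Atf4 passed the test. Atf4 encodes the factor of the amino acid arm, on chromosome 15 (80255184 to 80257541, plus strand). Its values were 4108, 4192 and 4247 with DMSO, 4124, 4560 and 3860 with ruxolitinib, 3376, 3133 and 3208 with GSK-LSD1, and 3567, 3371 and 3936 with both. Every library with GSK-LSD1 was below every DMSO library, and the ruxolitinib libraries overlapped DMSO. The mean fell from 4183 ± 70 to 3239 ± 124 with GSK-LSD1 (SD, n = 3; log2 fold change -0.37 ± 0.07 SE, adjusted p = 0.000193) and to 3625 ± 287 with both drugs (-0.21 ± 0.07, adjusted p = 0.0136). Without DMSO replicate 3 or without combination replicate 2 the latter call was lost (adjusted p up to 0.0861 over the alternatives). Ruxolitinib left a log2 difference of -0.0037 ± 0.07. Ddit3, which encodes the death-linked factor CHOP, had 73.5, 92.0 and 75.3 with DMSO, 92.5, 95.6 and 90.9 with ruxolitinib, 75.9, 99.5 and 83.8 with GSK-LSD1, and 70.4, 82.9 and 104.4 with both. All groups overlapped, and no comparison with DMSO passed (adjusted p from 0.478 to 0.683). Ddit3 shares exon sequence with Mars on the other strand, and the strandedness of the libraries is not given in the sources used here, so its reads may not all be its own. Atf5, a related factor, had differences of 0.16 with ruxolitinib, -0.09 with GSK-LSD1 and -0.0058 with both, none past the test.

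The enzymes of serine, one-carbon, asparagine, proline and cysteine metabolism were the group in which the largest share fell with GSK-LSD1, 7 of 9 members, and the same count fell with both drugs. That is 77.8% in each, against 15.5% and 21.8% of all tested genes. Asns (asparagine synthetase, chromosome 6, 7675169 to 7693254, minus strand) had 2465, 2355 and 2397 with DMSO and 2537, 2425 and 2393 with ruxolitinib. With GSK-LSD1 it had 1917, 1781 and 1757, and with both drugs 1783, 1913 and 1844. Libraries with and without GSK-LSD1 did not overlap. The log2 fold change was -0.40 ± 0.06 with GSK-LSD1 (adjusted p = 1.15e-05) and -0.38 ± 0.06 with both (adjusted p = 1.26e-05), which is 0.756 and 0.768 of the DMSO level. Psat1 makes phosphoserine, the second step from glycolysis to serine (chromosome 19, 15904678 to 15947337, minus strand). Its values were 5631, 5501 and 5585 with DMSO, 5419, 5214 and 5235 with ruxolitinib, 4514, 4428 and 4286 with GSK-LSD1, and 4167, 4417 and 4391 with both. All 9 treated libraries were below DMSO, but the fall passed the test only where GSK-LSD1 was given, at -0.34 ± 0.05 (adjusted p = 3.62e-05) and -0.37 ± 0.05 with both (7.65e-06), against -0.08 ± 0.05 for ruxolitinib (0.464).

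The other enzymes that were called all fell. Psph, which releases serine from phosphoserine, fell by 0.36 and 0.40 on the log2 scale with GSK-LSD1 and with both. Shmt2 and Mthfd2, which pass the carbon of serine on in mitochondria, fell by 0.28 and 0.30 and by 0.26 and 0.26. Aldh18a1, the entry to proline synthesis, fell by 0.21 and 0.26. Cth, which makes cysteine from cystathionine, had the largest fall, with 69.5, 77.0 and 66.4 with DMSO, 57.0, 44.8 and 48.9 with GSK-LSD1 and 41.7, 40.5 and 39.8 with both. It is a low gene, and the fall was -0.50 ± 0.16 (adjusted p = 0.0253) and -0.79 ± 0.16 (adjusted p = 0.000609). The GSK-LSD1 call of Cth was lost on leaving out GSK-LSD1 replicate 2 or 3, or DMSO replicate 1 or 2 (adjusted p up to 0.108). Phgdh, the first enzyme of the serine pathway, had a difference of -0.12 ± 0.13 with GSK-LSD1 and -0.07 ± 0.13 with both, and Pycr1, the last enzyme of proline synthesis, -0.12 ± 0.16 and -0.10 ± 0.16, none past the test. Phgdh has pseudogene copies that match up to 98.7% of aligned bases, Psph shares exon sequence with Cct6a and Shmt2 with Ndufa4l2, so these values may hold reads of other genes. Psat1 has a copy, Gm12611, at 90.9%.

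**Figure D3:**
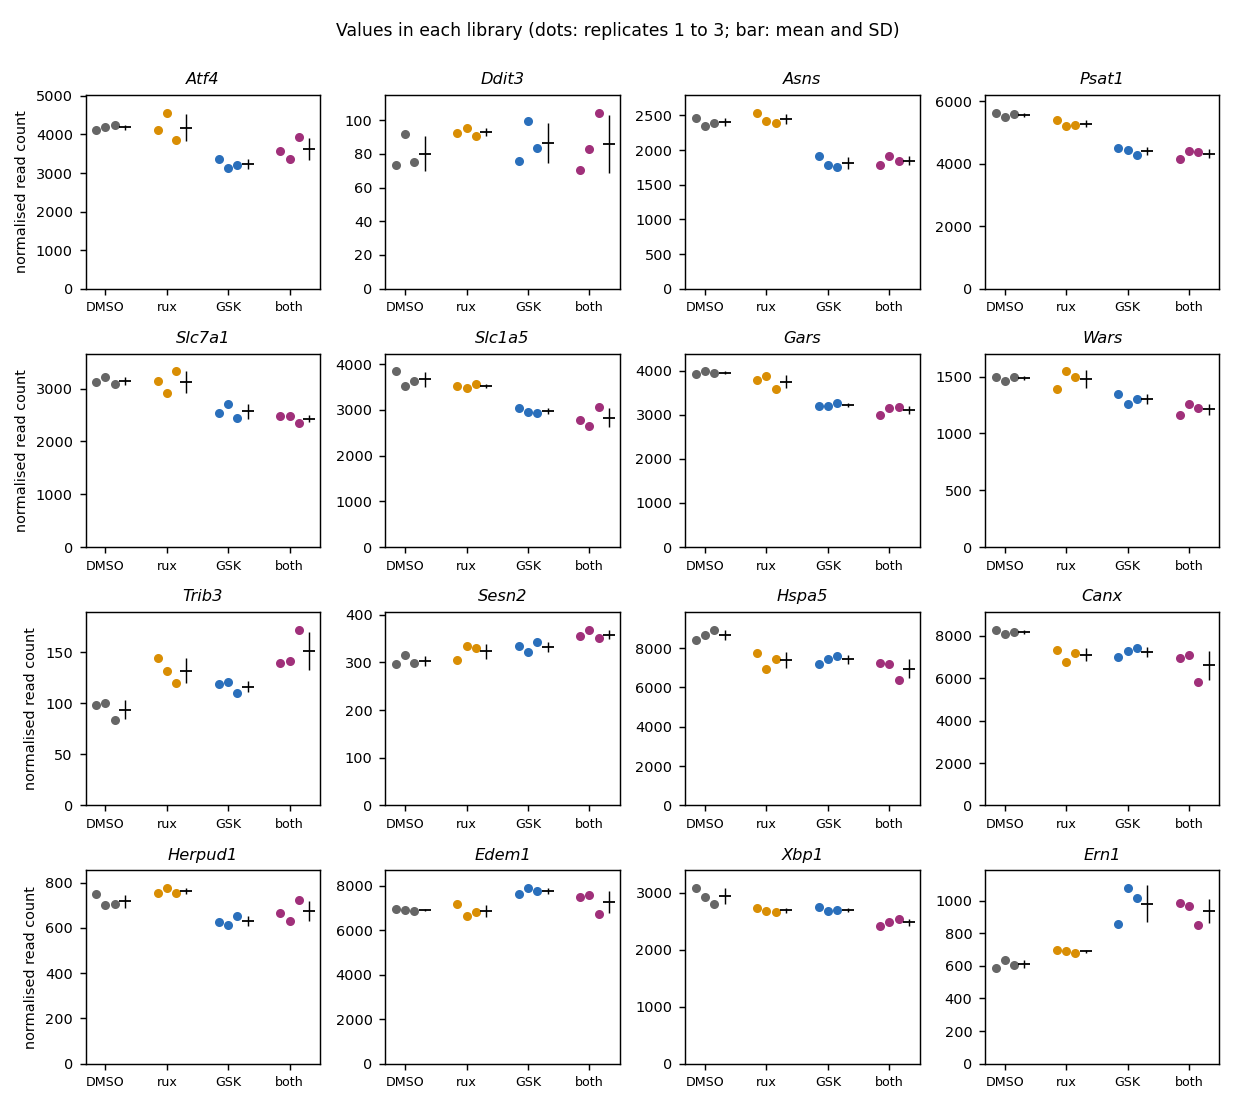
Normalised read counts in each library (y axes from 0) for 16 of the genes, 3 dots per treatment with the mean and SD beside them; rux, GSK and both stand for ruxolitinib, GSK-LSD1 and the combination. Asns, Psat1, Slc7a1, Slc1a5 and Gars sit lower in the 6 libraries with GSK-LSD1, Ern1 sits higher, and Hspa5 and Canx are lower in all 9 treated libraries.

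Of the 7 amino acid transporters, 2 fell and 1 rose with GSK-LSD1, and 4 fell and 1 rose with both drugs. The falls were 28.6% and 57.1%, against 15.5% and 21.8% of all tested genes. The rises, 14.3% in each, were below the 17.0% and 20.5% of all tested genes. Slc7a1 carries arginine and lysine into cells (chromosome 5, 148327410 to 148399904, minus strand). It had 3119, 3224 and 3095 with DMSO, 3140, 2914 and 3331 with ruxolitinib, 2548, 2720 and 2449 with GSK-LSD1, and 2478, 2477 and 2350 with both. Libraries with GSK-LSD1 were below all others, with a log2 fold change of -0.29 ± 0.06 (adjusted p = 0.000747), and -0.37 ± 0.06 with both (adjusted p = 3.74e-05). Slc1a5, a glutamine carrier (chromosome 7, 16781340 to 16798274, plus strand), had 3847, 3528 and 3642 with DMSO, 3528, 3485 and 3576 with ruxolitinib, 3041, 2951 and 2928 with GSK-LSD1, and 2780, 2650 and 3070 with both. Again the libraries with and without GSK-LSD1 did not overlap, and the log2 fold changes were -0.30 ± 0.06 (adjusted p = 0.000438) and -0.38 ± 0.06 (adjusted p = 2.65e-05).

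Slc7a11 and Slc38a2 departed from that pattern. Slc7a11 takes up cystine in exchange for glutamate. It had 371.4, 338.1 and 315.9 with DMSO, 302.4, 307.2 and 303.4 with ruxolitinib, 298.7, 384.2 and 285.2 with GSK-LSD1, and 263.8, 234.8 and 202.9 with both. Only the combination passed, at -0.55 ± 0.11 (adjusted p = 0.000354), against -0.16 ± 0.11 and -0.09 ± 0.11 for ruxolitinib and GSK-LSD1. Its interaction, the departure from adding the single-drug log2 fold changes, was -0.29 ± 0.15 and did not pass (adjusted p = 1). Part of the Slc7a11 transcript annotation also matches tubulin transcripts, 354 bases at 96.3% to Tuba1a. Slc38a2, a carrier of small neutral amino acids, had 3475, 3582 and 3592 with DMSO, 3441, 2716 and 3492 with ruxolitinib, 4267, 4635 and 4630 with GSK-LSD1, and 4579, 4477 and 3705 with both. It was the only amino acid gene that rose with GSK-LSD1 (0.34 ± 0.08, adjusted p = 0.0033). With both drugs it rose by 0.25 ± 0.08 (adjusted p = 0.0183), a call lost without DMSO replicate 1 or combination replicate 1 or 2 (adjusted p up to 0.0929). Slc7a5, the leucine carrier, fell with both drugs (-0.19 ± 0.05, adjusted p = 0.00614) but did not pass with GSK-LSD1 (-0.12 ± 0.05). Its partner Slc3a2 and the serine carrier Slc1a4 passed in no comparison with DMSO, with differences from -0.14 to 0.09.

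The 6 cytosolic aminoacyl-tRNA synthetases, which load amino acids onto tRNAs, were all lower in mean with GSK-LSD1, and 3 fell (Aars, Gars and Wars). With both drugs 5 fell, all but Aars. The falls were 50.0% and 83.3%, against 15.5% and 21.8% of all tested genes. Gars, for glycine (chromosome 6, 55038007 to 55079500, plus strand), had 3928, 3984 and 3952 with DMSO, 3791, 3871 and 3580 with ruxolitinib, 3197, 3188 and 3276 with GSK-LSD1, and 3001, 3144 and 3183 with both. The groups did not overlap, with log2 fold changes of -0.30 ± 0.05 (adjusted p = 0.000181) for GSK-LSD1 and -0.35 ± 0.05 (adjusted p = 1.79e-05) for both. Wars, for tryptophan (chromosome 12, 108860030 to 108894174, minus strand), had 1496, 1463 and 1499 with DMSO, 1393, 1546 and 1494 with ruxolitinib, 1346, 1257 and 1305 with GSK-LSD1, and 1159, 1255 and 1219 with both. It fell by 0.19 and 0.30 on the log2 scale. The GSK-LSD1 call of Wars was lost without DMSO replicate 1, DMSO replicate 3 or GSK-LSD1 replicate 2 (adjusted p up to 0.0822). Sars, Nars and Iars, for serine, asparagine and isoleucine, fell with both drugs by 0.17, 0.15 and 0.26. The call of Nars was lost in 13 of 25 alternatives, among them without any of the DMSO libraries, GSK-LSD1 replicate 3 or combination replicate 1 or 3 (adjusted p up to 0.25), and that of Sars without DMSO replicate 3 or combination replicate 1 (up to 0.118). Aars, for alanine, fell by 0.18 with GSK-LSD1 and had -0.11 with both. Its GSK-LSD1 call was lost without any of the DMSO libraries or GSK-LSD1 replicate 2 or 3 (adjusted p up to 0.0866), and it shares exon sequence with Exosc6 on the same strand.

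Among the feedback genes of the pathway no call was a fall against DMSO. With both drugs 2 of 5 rose, with GSK-LSD1 none passed, and with ruxolitinib 1 rose. With GSK-LSD1, Trib3 alone had an unadjusted p under 0.05 (limma), at rank 3865 among 11484 tested genes. The rises were 40.0% with both drugs and 20.0% with ruxolitinib, against 20.5% and 1.00% of all tested genes. Trib3, a pseudokinase that ATF4 induces and that binds ATF4 in return (chromosome 2, 152337422 to 152344032, minus strand), had 98.3, 100 and 83.2 with DMSO, 144.3, 131.5 and 119.6 with ruxolitinib, 118.9, 120.4 and 109.7 with GSK-LSD1, and 139.8, 141.1 and 172.0 with both. All 9 treated libraries were above DMSO. The log2 fold change was 0.49 ± 0.12 with ruxolitinib (adjusted p = 0.0473), 0.31 ± 0.12 with GSK-LSD1 (0.0566) and 0.68 ± 0.12 with both (0.000136). The ruxolitinib call of Trib3 stood close to the threshold and was lost in 17 of 25 alternatives, among them without any library but ruxolitinib replicate 3 or combination replicate 3 (adjusted p up to 0.204). Sesn2, an inhibitor of the growth kinase mTORC1 (chromosome 4, 132492032 to 132510501, minus strand), had 295.9, 315.1 and 298.1 with DMSO, 304.4, 333.9 and 331.0 with ruxolitinib, 334.7, 321.5 and 342.0 with GSK-LSD1, and 355.1, 368.9 and 352.0 with both. Its combination libraries lay above all others, with a rise of 0.24 ± 0.08 (adjusted p = 0.0137) that was lost without DMSO replicate 1 or combination replicate 2 and after correction for GC content (adjusted p up to 0.127). Chac1, which breaks down glutathione, had 0.24 with ruxolitinib, -0.19 with GSK-LSD1 and 0.28 with both. Ddit4, another mTORC1 inhibitor, and Ppp1r15a, the subunit that returns eIF2 to its unphosphorylated form, lay between -0.15 and 0.11. None of these 3 passed against DMSO, and Chac1 was lower with GSK-LSD1 than with ruxolitinib (-0.42, adjusted p = 0.0248), a call lost without ruxolitinib replicate 2 or 3 or GSK-LSD1 replicate 3 (adjusted p up to 0.186).

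Of the 10 chaperones and folding enzymes of the endoplasmic reticulum, 3 fell with GSK-LSD1 and 4 with both drugs, and none rose. The falls were 30.0% and 40.0%, against 15.5% and 21.8% of all tested genes. Hspa5 encodes BiP, the main chaperone of the compartment (chromosome 2, 34771970 to 34777547, plus strand). It had 8392, 8639 and 8935 with DMSO, 7744, 6932 and 7452 with ruxolitinib, 7198, 7453 and 7619 with GSK-LSD1, and 7237, 7213 and 6387 with both. All 9 treated libraries were below DMSO, and the treated groups overlapped each other. The log2 fold change was -0.23 ± 0.06 with ruxolitinib (adjusted p = 0.0535), -0.22 ± 0.06 with GSK-LSD1 (0.00781) and -0.32 ± 0.06 with both (0.000235). Canx, the glycoprotein chaperone calnexin (chromosome 11, 50293961 to 50325673, minus strand), had 8296, 8098 and 8202 with DMSO, 7355, 6759 and 7217 with ruxolitinib, 6994, 7289 and 7452 with GSK-LSD1, and 6949, 7084 and 5834 with both. It showed the same order, with -0.21 ± 0.07 (adjusted p = 0.106), -0.18 ± 0.07 (0.0403) and -0.31 ± 0.07 (0.000588). The GSK-LSD1 call of Canx was lost without any single DMSO or GSK-LSD1 library and under the replicate block (adjusted p up to 0.136).

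Ruxolitinib brought no chaperone past the test, although 9 of the 10 were lower in mean and 6 had an unadjusted p under 0.05 (limma). The share of all tested genes at that threshold was not computed. The weakest of the 6, Pdia4 (unadjusted p = 0.0458, limma), had rank 1915 among 11484 tested genes, so many other genes passed it too. The median of the 10 chaperones was -0.13, against -0.0012 over all tested genes. Without combination replicate 3, a library outside that comparison that enters the shared estimate of spread, Hspa5 (adjusted p = 0.011), Hsp90b1 and Canx (0.0181) were called. Fold changes with ruxolitinib followed transcript GC content over 11053 genes (Spearman rho 0.41), against 0.11 with GSK-LSD1 and 0.20 with both, and the ER genes are poorer in GC (median 47.2%) than the amino acid genes (53.4%) or all tested genes (49.7%). After correction of each library for GC content the ruxolitinib median was -0.08 for the ER genes and -0.04 for the amino acid genes. The gap between the arms was then smaller. Hspa5 (-0.18, adjusted p = 0.0232) and Xbp1 (-0.17, 0.0481) were called in place of Trib3. The correction would also remove a drug effect that follows GC content, and the source of the gap was not tested.

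Hsp90b1, the reticulum's HSP90, fell with both drugs (-0.28 ± 0.06, adjusted p = 0.000849), where its values were 8449, 8617 and 7332 against 9646, 9795 and 10040 with DMSO. Hsp90b1 overlaps the transcript 1810014B01Rik on the other strand. Sdf2l1, a partner of BiP, fell by 0.21 with GSK-LSD1 and 0.27 with both, the first call lost without DMSO replicate 3 or GSK-LSD1 replicate 2 or 3 (adjusted p up to 0.147). The disulfide enzymes Pdia3, Pdia4 and Pdia6, the lectin chaperone Calr and the co-chaperones Dnajb9 and Dnajc3 passed in no comparison with DMSO. Their log2 differences lay between -0.16 and 0.20. Of the 6 genes with the ER stress element in the printed stretches, 2 fell with GSK-LSD1 (Hspa5 and Canx) and 3 with both (with Hsp90b1). Of the 9 tested ER genes with a window but without it, 2 rose and 2 fell with GSK-LSD1, and 1 rose and 2 fell with both. Of the 9 tested amino acid genes with TGATGNAA, 0 rose and 3 fell with GSK-LSD1, and 1 rose (Trib3) and 4 fell with both. Of the 16 without it, 1 rose (Slc38a2) and 7 fell with GSK-LSD1, and 2 rose (with Sesn2) and 8 fell with both. With ruxolitinib only Trib3 was called. Of all tested genes, 17.0% rose and 15.5% fell with GSK-LSD1, and 20.5% rose and 21.8% fell with both.

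The 2 degradation genes moved apart. Herpud1, a membrane component of the disposal machinery (chromosome 8, 94386438 to 94395377, plus strand), had 750.8, 699.2 and 704.1 with DMSO, 755.1, 775.7 and 754.0 with ruxolitinib, 627.4, 611.1 and 651.2 with GSK-LSD1, and 665.5, 632.3 and 721.0 with both. It fell with GSK-LSD1 (-0.19 ± 0.07, adjusted p = 0.0325) and had -0.09 with both (0.258). Edem1, which marks misfolded glycoproteins for disposal (chromosome 6, 108828641 to 108859356, plus strand), had 6939, 6913 and 6880 with DMSO, 7163, 6650 and 6804 with ruxolitinib, 7630, 7902 and 7758 with GSK-LSD1, and 7505, 7606 and 6721 with both. It rose with GSK-LSD1 (0.17 ± 0.06, adjusted p = 0.0271) and had 0.07 with both (0.317), where replicate 3 lay below every DMSO library. Either GSK-LSD1 call was lost without any of the DMSO libraries. That of Herpud1 was also lost without GSK-LSD1 replicate 1 or 2 (adjusted p up to 0.139) and that of Edem1 without GSK-LSD1 replicate 2 or 3 (up to 0.0979).

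The sensors held the largest rises of the ER arm. Ern1, the gene of the sensor kinase and RNase IRE1 (chromosome 11, 106394650 to 106487852, minus strand), had 587.9, 636.2 and 608.0 with DMSO, 695.4, 691.5 and 679.9 with ruxolitinib, 856.2, 1077 and 1013 with GSK-LSD1, and 984.9, 966.8 and 851.3 with both. Every treated library was above DMSO, and those with GSK-LSD1 were above those with ruxolitinib alone. The rise was 0.68 ± 0.08 with GSK-LSD1 (adjusted p = 1.13e-06), 1.60 times the DMSO level, and 0.61 ± 0.08 with both (2.42e-06), against 0.17 ± 0.08 with ruxolitinib (0.253). Atf6, the membrane-bound sensor and factor, had 1159, 1114 and 1089 with DMSO, 1040, 968.9 and 1117 with ruxolitinib, 1509, 1612 and 1602 with GSK-LSD1, and 1463, 1388 and 1275 with both. It rose by 0.49 ± 0.07 (adjusted p = 8.59e-06) and 0.29 ± 0.07 (0.00115), and the combination libraries lay below those with GSK-LSD1 alone.

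Xbp1, whose spliced transcript encodes the chaperone-inducing factor (chromosome 11, 5520659 to 5525893, plus strand), had 3083, 2918 and 2806 with DMSO, 2734, 2674 and 2665 with ruxolitinib, 2745, 2675 and 2693 with GSK-LSD1, and 2424, 2484 and 2548 with both. All treated libraries were below DMSO, and the combination was below both single drugs. The fall passed only with both drugs (-0.24 ± 0.05, adjusted p = 0.00103), against -0.12 ± 0.05 (0.228) and -0.12 ± 0.05 (0.0971) with ruxolitinib and GSK-LSD1. The sensor kinase that phosphorylates eIF2 in this compartment, PERK (Eif2ak3), had 0.01, 0.11 and -0.05 with ruxolitinib, GSK-LSD1 and both, none past the test. Over the whole set, 22 of the 27 calls with both drugs and 14 of the 21 with GSK-LSD1 held in each of 25 alternative analyses.

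The drugs were also compared directly. Between GSK-LSD1 and ruxolitinib, 5 genes were higher and 16 lower with GSK-LSD1, against 13.6% and 11.8% of all tested genes. Asns differed by -0.43 ± 0.06 (adjusted p = 5.84e-06), Atf4 by -0.37 ± 0.07 (0.000283) and Atf6 by 0.60 ± 0.07 (6.47e-07). Pdia4, a disulfide enzyme, was higher with GSK-LSD1 than with ruxolitinib (0.23 ± 0.06, adjusted p = 0.00399), although it passed against DMSO with neither. Between the combination and ruxolitinib, 5 were higher and 18 lower with the combination, against 16.0% and 15.6%. Ddit4 (0.24 ± 0.08, adjusted p = 0.0274) was among the higher genes there, a call lost without ruxolitinib replicate 1 or 2 or combination replicate 3 (up to 0.198).

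Adding ruxolitinib to GSK-LSD1 moved a single member past the test. Between the combination and GSK-LSD1 alone, 0 were higher and 1 lower, against 1.05% and 0.348%. At an unadjusted p under 0.05 (limma) 7 passed, but the weakest, Xbp1 (0.0313), had rank 1050 among 11484 tested genes. Many other genes therefore passed too. The member past the adjusted test was Slc7a11 (-0.46 ± 0.11, adjusted p = 0.034). The 3 combination libraries were below the 3 of GSK-LSD1, but the call was lost in 9 of 25 alternatives, including without DMSO replicate 2, GSK-LSD1 replicate 1 or 2, or combination replicate 2 or 3 (adjusted p up to 0.294). The interaction, which sets the combination against the single-drug log2 fold changes added together, called 0 members higher and 0 lower, against 0.00871% and 0% of all tested genes. In that test 1 member, Ern1, had an unadjusted p under 0.05 (limma), at -0.24 ± 0.11, with rank 430 among the 11484 tested genes. With 3 libraries a group this does not show that the effects add.

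Genes of the same pathways outside the 47 were read from 6 lists. Of 14 other cytosolic synthetases 11 fell and 0 rose with GSK-LSD1, and the same numbers with both drugs. The falls were 78.6% in each, against 15.5% and 21.8% of all tested genes. The largest called falls with both were Farsb, for phenylalanine (1423 ± 25.1 with DMSO and 1014 ± 60.0 with both, SD, n = 3; -0.49 ± 0.06), and Rars, for arginine (-0.45 ± 0.06). Of 17 mitochondrial synthetases 4 fell with GSK-LSD1 and 8 with both, led by Mars2 (-0.60) and Yars2 (-0.53). Their falls were 23.5% and 47.1%, against the same 15.5% and 21.8%, so the excess with GSK-LSD1 was smaller than for the cytosolic list. Of 12 genes for eIF2, its exchange factor eIF2B, its kinases and a phosphatase subunit, 7 and 8 fell (58.3% and 66.7%) and 0 rose. The eIF2B subunits Eif2b3 (-0.75 with both) and Eif2b4 (-0.57) fell most.

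Of 24 other ATF4 target, serine and one-carbon genes 21 were tested, of which 4 rose and 6 fell with GSK-LSD1, and 5 rose and 6 fell with both. The rises, 19.0% and 23.8%, were near the 17.0% and 20.5% over all tested genes, and the falls were 28.6% in each, against 15.5% and 21.8%. The largest called changes with both were falls of Shmt1 (-0.65 ± 0.06, adjusted p = 1.39e-08) and Mthfd1 (-0.58 ± 0.06, 1.38e-07), both cytosolic one-carbon enzymes. Of 28 other folding and protein entry genes of the reticulum 27 were tested, of which 1 rose and 4 fell with GSK-LSD1, and 2 rose and 9 fell with both. With GSK-LSD1 the falls, 14.8%, were near the 15.5% over all tested genes and the rises, 3.70%, below the 17.0%, and with both drugs 33.3% fell against 21.8%. Ero1l, which oxidises the disulfide enzymes, fell by 0.52 with both and was the only gene of the list called with ruxolitinib (-0.34, adjusted p = 0.0132), and Dnajc10, a disulfide reductase, rose by 0.47 with both. Of 20 other degradation and signalling genes 4 rose and 0 fell with GSK-LSD1, and 4 rose and 2 fell with both. The rises, 20.0% in each, were near the 17.0% and 20.5% over all tested genes. The largest called changes of that list with both drugs were those of Wfs1 (0.77) and Edem2 (0.39).

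**Figure D4:**
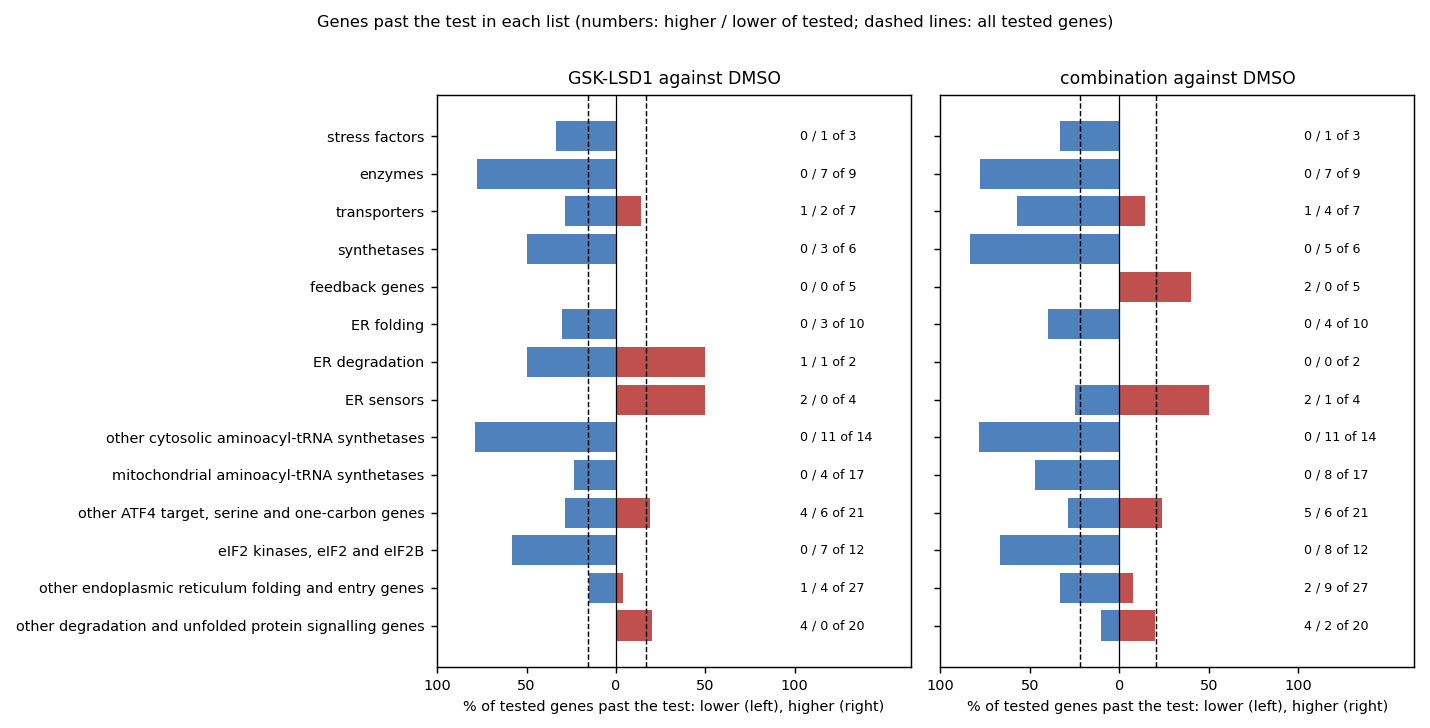
Share of the tested genes of each group or list that fell (left, blue) or rose (right, red) against DMSO, with the numbers beside the bars and the shares over all tested genes as dashed lines. In both panels the falls of the enzymes (7 of 9), the other cytosolic synthetases (11 of 14) and the eIF2 genes (7 and 8 of 12) pass the dashed line, and those of the degradation genes outside the 47 do not.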

How the data were processed

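RNA sequencing of 12 libraries was read from a single deposited table of gene signal values. Per the labels these are normalised counts. The deposited values are whole steps that differ by library, so the authors appear to have divided read counts by a library factor, and 1e-05 had been added, which was taken off. With that constant present no whole-read table was rebuilt, so count models were not used. STAR, DESeq2, mm10 and GRCm38 are named, per the submitters' processing notes, without versions or roles. The counting program, annotation and strandedness are not given in the sources used here.

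Genes with a mean of at least 10 were tested with limma 3.58.1 (R 4.3.3) on log2(value + 1), so fold changes of low genes are understated. A mean per treatment was fitted, with a variance trend and 8 residual degrees of freedom. Benjamini-Hochberg adjustment covered all 11484 genes, and an adjusted p under 0.05 was a call. Values in every library are given for 6 genes set by name and the 2 members of each role group with the smallest p in the combination against DMSO; other members whose values are given in full (Cth, Slc7a11, Slc38a2, Atf6) were chosen after their values were seen. From each list of other genes the 2 largest called changes are named. The members, roles, lists and rules were chosen with earlier results of these data known. Positions come from GENCODE vM21 (GRCm38) and promoters from RefSeq. Marker lists held 7 to 10 genes. Alternatives were other pseudocounts, filters, scalings, weights, variance priors and samples, a replicate block, GC correction and leaving out libraries. The procedure was also run on simulated data with changes set in the combination group only. That is a simpler setting than these data, so it does not test the calls given here.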

Additional observations from a re-analysis of the deposited data

How the results depend on the processing

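Under 25 alternatives no called value changed sign, but the amino acid median with ruxolitinib, which is near 0, did. The combination had between 24 and 30 calls (27 as reported) and GSK-LSD1 between 14 and 29 (21), not always of the same genes, and 22 and 14 of the reported genes were called in all of them. Counts near 0 were the least stable. For ruxolitinib (1 called) there were 0 with no filter, quantile normalisation, no variance trend or only the groups compared, 3 with array weights, 2 with GC correction, 4 without both outlying libraries, and 0 to 4 when single libraries were left out. For the combination against GSK-LSD1 (1 called) there were 0 with no filter, no variance trend, only the groups compared or both outlying libraries left out, 3 with array weights, and 0 to 1 with single libraries left out. Of the medians, the ER median with GSK-LSD1 (-0.02) was -0.0139 with median-of-ratios scaling, -0.005 with quantile normalisation, -0.0057 with GC correction (with and without the replicate block) and -0.0356 to -0.0171 with single libraries left out. The amino acid median with ruxolitinib (0.0005) was 0.0218 with quantile normalisation, -0.0442 with GC correction and -0.0163 to 0.0041 with single libraries left out. With both drugs it (-0.18) was -0.2184 with GC correction, -0.205 without both outlying libraries and -0.205 to -0.1692 with single libraries left out. The amino acid median with GSK-LSD1 ranged from -0.2037 to -0.1166 and the ER median with ruxolitinib from -0.1038 to -0.0716 over single libraries left out. The cause of these shifts was not tested.

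The replicate block gave 0 calls for ruxolitinib, 20 for GSK-LSD1 and 26 for the combination. Libraries with the same number correlated between -0.15 and 0.15 in their deviations and those with other numbers between -0.23 and 0.28, so the numbers were not taken as pairs. Low genes such as Cth (SE 0.16) were measured less precisely than abundant ones such as Psat1 (SE 0.05).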
